A study of Homo sapiens with 9 samples.

Results

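Long noncoding RNA (lncRNA) genes were followed in HCT116 cells, a human colorectal carcinoma line, with and without a catalytic mutation of the ubiquitin ligase HUWE1. The members were chosen by name only: symbols that start with LINC or SNHG and a number, symbols of the form MIR...HG, symbols that end in -AS1, -AS2 or -AS3, and GAS5, MALAT1, NEAT1, TUG1, NORAD, PVT1, ZFAS1, EPB41L4A-AS1 and OIP5-AS1. This gave 120 of the 11350 genes in the count table. By symbol they were grouped into roles as 21 small nucleolar RNA (snoRNA) host genes, 2 architectural nuclear RNAs, 5 microRNA host genes, 4 other long-known RNAs, 50 genes named as antisense and 38 LINC genes. LINC00888 was left with the LINC genes, although RefSeq names it SNHG33 and GENCODE places SNORA4, SNORA63 and SNORA81 inside it. RefSeq gives 117 of them as lncRNA, 1 (TUG1) as protein-coding and has no entry for 2. A further 49 genes that RefSeq gives as lncRNA have names outside the rule.

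The 3 lines were sequenced, with 3 libraries of each and no treatment. HUWE1-P are the parental HCT116 cells. In HUWE1-WT a stretch of HUWE1 around the catalytic site was replaced from a repair template that kept the cysteine, as an editing control. In HUWE1-CS the template carried serine in that place. Both edited lines had passed through drug selection and single-cell cloning and carry a blasticidin resistance gene behind HUWE1, which the parental cells lack. The sources used here do not say how many clones the replicates of an edited line came from. HUWE1-CS against HUWE1-WT compares lines that were both edited and cloned, and HUWE1-WT against HUWE1-P an edited and cloned line with its parent. In HUWE1-CS against HUWE1-WT an effect of the serine and a difference between clones cannot be told apart. In bulk RNA a change in every cell and a change in the share of cells that express a gene cannot be told apart.

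LncRNAs are transcripts without a long open reading frame, and many are spliced and polyadenylated like mRNAs. snoRNA host genes carry, in their introns, the small RNAs that guide chemical modification of ribosomal RNA, and the exons left over make a short spliced RNA that is often destroyed by nonsense-mediated decay. Several hosts begin with a terminal oligopyrimidine tract, a C followed by a run of C and T that also opens the mRNAs of ribosomal proteins. MALAT1 and NEAT1 stay in the nucleus, at speckles and as the scaffold of paraspeckles. NORAD is a cytoplasmic RNA needed for stable chromosome numbers, and antisense-named genes lie on the strand opposite to a protein-coding neighbour or share its promoter.

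The library totals were 1610984 to 2060349 counts, and 3 counts correspond to 1.45 to 1.86 CPM (the count of a gene brought to a common library size, here with TMM scaling). The members took 0.375 to 0.437% of the counts of a library, and the median member had 18 to 24 counts in a library. HUWE1 itself stood at 522 to 561 CPM in HUWE1-P, 453 to 498 CPM in HUWE1-WT and 323 to 345 CPM in HUWE1-CS cells, so that the HUWE1-CS libraries held less HUWE1 RNA, although the edited codon itself is not read from counts. All 6 epithelial markers looked for were among the genes of the table. Against HUWE1-P and against HUWE1-WT 5 of them passed the test (p and adjusted p of at most 0.01). Of these, 3 were higher in HUWE1-CS cells (CDH1, CLDN7 and EPCAM) and 2 lower (KRT8 and KRT18). Over all genes 17.0% and 15.5% passed. Of 7 markers of other cells 1, COL1A1, was in the table, at 18 to 25.6 CPM in the control libraries and 8.71 to 14.8 CPM in HUWE1-CS libraries. The part of COL1A1 in the results was not tested.

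SNHG32 and SNHG19 were higher in HUWE1-CS cells than in both control lines with the smallest p-values of the list, and both are snoRNA hosts. GENCODE places SNORD48 and SNORD52 inside SNHG32, and SNORD60 inside SNHG19, all of them small RNAs of the class that guides ribose methylation. The start regions of both are printed in full because both open, at the RefSeq start, with a C and further pyrimidines. The 300 bases run from 250 bases before the start to 50 bases from it, and capitals mark the pyrimidine run at the start and TATAAA. The bases are those of RefSeq's promoter table (GRCh38.p14), and each matched GRCh37, the build of the files (hg19), at 1 place, SNHG32 at chr6:31802443-31802742 on the plus strand and SNHG19 at chr16:2205310-2205609 on the minus strand.
SNHG32: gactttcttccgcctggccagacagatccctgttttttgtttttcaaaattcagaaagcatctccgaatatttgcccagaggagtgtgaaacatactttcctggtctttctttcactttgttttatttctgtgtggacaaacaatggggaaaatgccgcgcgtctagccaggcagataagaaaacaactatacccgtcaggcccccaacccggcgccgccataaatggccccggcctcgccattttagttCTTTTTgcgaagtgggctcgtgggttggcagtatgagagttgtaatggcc
SNHG19: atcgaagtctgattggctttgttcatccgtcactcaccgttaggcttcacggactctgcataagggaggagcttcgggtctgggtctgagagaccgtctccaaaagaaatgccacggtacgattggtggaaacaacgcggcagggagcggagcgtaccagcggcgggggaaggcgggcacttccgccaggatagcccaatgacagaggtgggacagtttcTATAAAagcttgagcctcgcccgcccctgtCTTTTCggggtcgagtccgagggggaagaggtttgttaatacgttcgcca

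A start of this kind, C followed by at least 4 pyrimidines on the coding strand, was found in 6 of the 18 snoRNA hosts with an entry (33.3%), in 1 of the 109 promoters of the other members (0.917%) and in 4.07% of all 35116 promoters of the table. The other hosts that have it are shown with 3 abundant hosts that do not, as 60 bases with the start at base 31, so that the eye can compare the run in capitals with what stands in its place. SNHG1, SNHG16 and SNHG29 hold pyrimidine runs a few bases away from the RefSeq start, and a start placed some bases off would be missed by the rule.
SNHG5: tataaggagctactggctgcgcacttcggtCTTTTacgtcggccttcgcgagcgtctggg
ZFAS1: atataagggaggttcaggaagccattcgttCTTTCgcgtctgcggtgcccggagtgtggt
SNHG12: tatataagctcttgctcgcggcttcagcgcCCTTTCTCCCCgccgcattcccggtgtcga
SNHG4: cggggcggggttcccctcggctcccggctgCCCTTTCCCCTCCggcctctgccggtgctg
SNHG1: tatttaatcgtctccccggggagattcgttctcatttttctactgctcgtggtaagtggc
SNHG16: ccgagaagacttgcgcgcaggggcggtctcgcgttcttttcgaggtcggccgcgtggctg
SNHG29: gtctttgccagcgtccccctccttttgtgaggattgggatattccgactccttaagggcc

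Over all members together, other motifs were found at shares near those of the table. CACGTG, the E-box bound by MYC and MAX, which reads the same on both strands, was found in 10 of 127 promoters of 99 members (7.87%) and in 7.26% of all promoters. TATAAA, searched on both strands, was found in 11 (8.66%, against 11.5% of all), SNHG19 among them, and TGACGTCA, the palindromic cyclic AMP response element, in 3 (2.36%, against 1.85%). In the 18 host promoters alone TATAAA was found in 4 (22.2%), CACGTG in 1 (5.56%) and TGACGTCA in 0. In the 109 promoters of the other members they were found in 7 (6.42%), 9 (8.26%) and 3 (2.75%). These are matches of letters and were not tested.

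SNHG32 was measured at 90.6, 97.1 and 102 CPM in HUWE1-P, 92.1, 99.3 and 91.9 CPM in HUWE1-WT and 148, 128 and 141 CPM in HUWE1-CS cells. All 3 HUWE1-CS libraries lay above all 6 control libraries, and the control lines overlapped. The log2 fold change was 0.52 ± 0.094 (SE) against HUWE1-P, a rise of 1.44-fold with an adjusted p of 6.0e-06 (edgeR's quasi-likelihood test, Benjamini-Hochberg over 11350 genes), and 0.56 ± 0.095 against HUWE1-WT, with an adjusted p of 2.1e-06. HUWE1-WT and HUWE1-P differed by -0.035 ± 0.10.

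SNHG19, a short gene on GRCh37 chr16:2204793-2205406, had 15.5, 11.2 and 16.4 CPM in HUWE1-P, 9.27, 23.5 and 14.5 CPM in HUWE1-WT and 29.7, 28.9 and 34.8 CPM in HUWE1-CS cells. The HUWE1-CS libraries were again above every control library, while the HUWE1-WT libraries were the most spread. It rose by 1.10 ± 0.21 on the log2 scale against HUWE1-P, or 2.15-fold (adjusted p = 2.2e-05 by edgeR), and by 0.97 ± 0.21 against HUWE1-WT (adjusted p = 0.00020 by edgeR), a call that was lost without HUWE1-WT replicate 1 (log2 fold change 0.70, adjusted p = 0.013). Its RNA is short (394 bases), and short RNAs as a class were higher in HUWE1-CS cells: over the 727 genes of up to 1 kb the median log2 fold change was 0.19 against HUWE1-P, and over the 4426 genes longer than 4 kb it was -0.089. With that trend taken out, SNHG32 still rose by 0.38 (adjusted p = 0.00095 by edgeR) and SNHG19 kept its call in both comparisons.

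**Figure D1:**
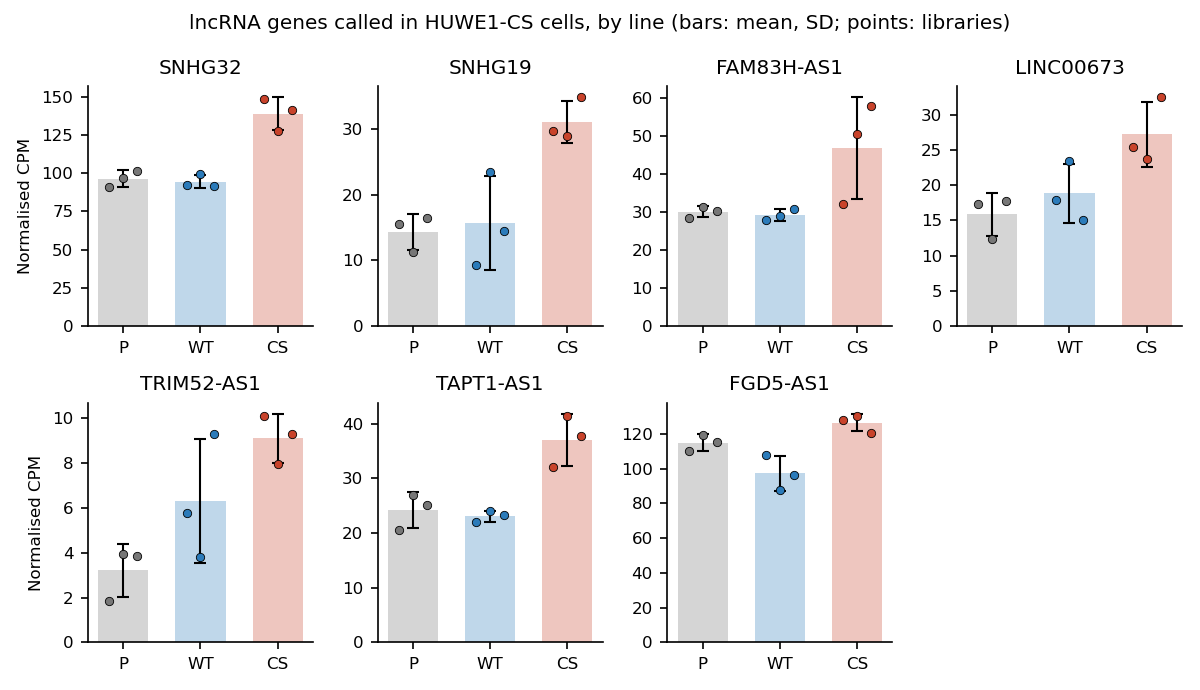
Normalised CPM (y axis, from 0) of the 7 lncRNA genes that passed the test in either comparison with HUWE1-CS cells, in the HUWE1-P, HUWE1-WT and HUWE1-CS lines (x axis). Points are the 3 libraries of a line, bars the mean and error bars the SD. SNHG32, SNHG19, FAM83H-AS1, LINC00673, TAPT1-AS1 and FGD5-AS1 have all 3 HUWE1-CS points above all control points, and in TRIM52-AS1 the HUWE1-WT points reach into them.

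Among the 21 snoRNA hosts, 2 were called against HUWE1-P and 2 against HUWE1-WT, the same genes, all higher (9.52% of the hosts each). The threshold was a p and an adjusted p (FDR) of at most 0.01. Against it, 17.0% of all genes were called in HUWE1-CS against HUWE1-P (8.46% higher and 8.58% lower) and 15.5% in HUWE1-CS against HUWE1-WT (7.42% higher and 8.08% lower), so that the hosts' share was below that of all genes. Of the hosts, 13 had a positive log2 fold change against HUWE1-P and 14 against HUWE1-WT, with medians of 0.13 and 0.16, where the medians of all genes were -0.0072 and -0.00059. In 6 hosts all HUWE1-CS values were outside the range of the 6 control values (28.6%, against 26.3% of all genes), 5 higher and 1 lower.

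The hosts with the pyrimidine start had changes of both signs. SNHG32 and SNHG19 rose, whereas SNHG12 (0.16), SNHG5 (0.14), ZFAS1 (-0.21) and SNHG4 (-0.62) did not pass the test against HUWE1-P. SNHG4, a host of the H/ACA class of snoRNAs, had 18.6, 25.8 and 19.8 CPM in HUWE1-P, 19.7, 18.5 and 22.1 CPM in HUWE1-WT and 17.2, 9.07 and 15.7 CPM in HUWE1-CS cells. Its HUWE1-CS libraries were below every control library, with an adjusted p of 0.035 by edgeR against HUWE1-P and 0.090 against HUWE1-WT. The median log2 fold change against HUWE1-P was 0.15 over the 6 hosts with the start and 0.033 over the 12 without, a description with no test.

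The abundant hosts differed little between the lines. SNHG29, at 516 to 536 CPM in HUWE1-P, 477 to 556 CPM in HUWE1-WT and 549 to 597 CPM in HUWE1-CS cells, gave 0.13 ± 0.063 against HUWE1-P (adjusted p = 0.13 by edgeR). SNHG16 gave -0.048 ± 0.072 and SNHG1, the host whose spliced RNA is a textbook target of nonsense-mediated decay, -0.12 ± 0.082. GAS5, named for its accumulation in growth-arrested cells, was at 78.01 to 88.65 CPM in HUWE1-P, 80.2 to 82.3 CPM in HUWE1-WT and 82.5 to 97.0 CPM in HUWE1-CS cells, so that HUWE1-CS overlapped HUWE1-P and lay above HUWE1-WT, without passing the test (adjusted p = 0.39 and 0.30 by edgeR). The standard errors of these 4 genes, 0.063 to 0.11, were close to that of SNHG32. With the length trend removed, SNHG16 (-0.21) and SNHG1 (-0.25) passed the test as lower against HUWE1-P, each with an adjusted p of 0.0095 by edgeR. Against HUWE1-WT neither passed as lower in that setting, where all 4 members called were higher.

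EPB41L4A-AS1 (0.38), SNHG8 (0.28) and SNHG6 (0.18) had HUWE1-CS libraries above all control libraries without passing the test against HUWE1-P, with adjusted p-values of 0.16, 0.14 and 0.17 by edgeR. Of the exonic bases of EPB41L4A-AS1 51.2% are shared with EPB41L4A on the other strand, of those of SNHG8 37.6% with PRSS12 and of those of SNHG7 30.3% with DIPK1B. The kit named for the libraries does not mark strand, and the sources used here do not state whether strand was kept. Without strand the reads of these pairs cannot be told apart there. SNHG3 (-0.088), SNHG7 (0.11), SNHG9 (0.15), SNHG10 (-0.048), SNHG11 (0.38), SNHG15 (0.28), SNHG17 (-0.17) and SNHG20 (-0.49) completed the group, none of them called.

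**Figure D2:**
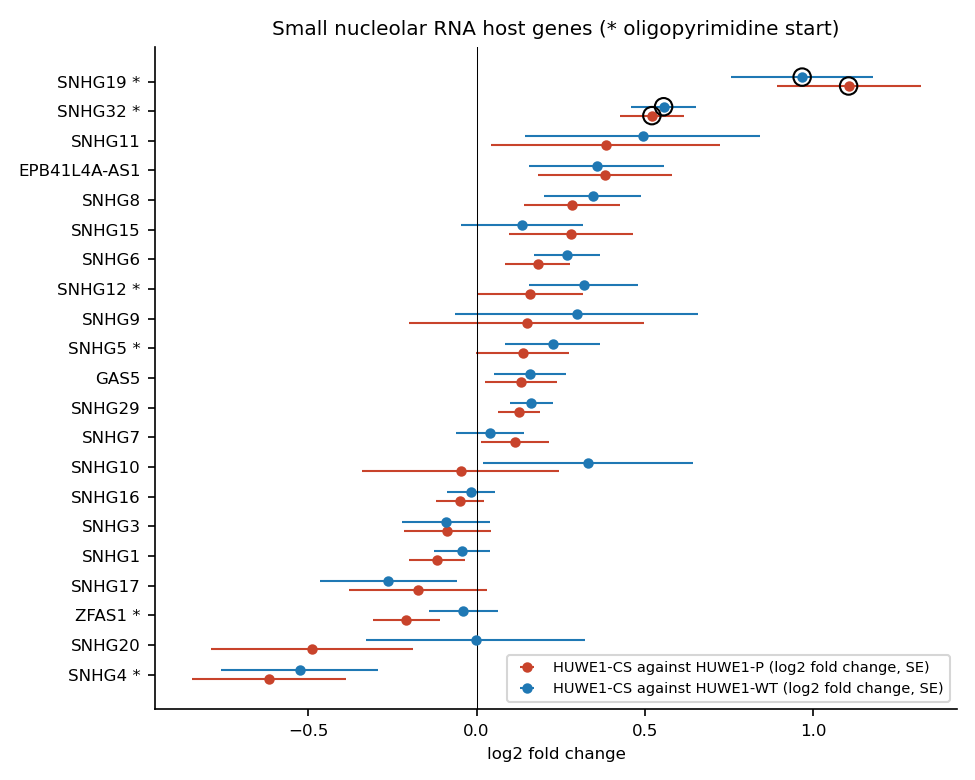
log2 fold change (x axis) of the 21 snoRNA host genes (y axis, in order of the change against HUWE1-P) in HUWE1-CS against HUWE1-P (red) and against HUWE1-WT (blue), with standard errors. Black rings mark calls, and a star after the name marks a start of C and at least 4 pyrimidines. SNHG19 and SNHG32 stand at the top with both comparisons called, and starred hosts are also found at the bottom, where SNHG4 lies at -0.62.

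Proteins that work on these RNAs were read from a list. Of the 8 core snoRNP proteins in the table, 1 was called against HUWE1-P and against HUWE1-WT (12.5% each), NHP2, an H/ACA component. It rose from 163, 188 and 153 CPM in HUWE1-P and 180, 206 and 167 CPM in HUWE1-WT to 293, 322 and 315 CPM in HUWE1-CS cells. On the log2 scale the rise was 0.89 ± 0.077 against HUWE1-P and 0.75 ± 0.076 against HUWE1-WT (adjusted p = 1.8e-17 and 5.2e-14 by edgeR). The C/D components FBL (-0.18), NOP56 (0.14), NOP58 (0.11) and SNU13 (0.23) did not pass against HUWE1-P. Of 14 nonsense-mediated decay factors, RBM8A rose by 0.45 and SMG1, the kinase of UPF1, fell by 0.31 against HUWE1-P (14.3% called). UPF1 (-0.12) did not pass there. Against HUWE1-WT RBM8A rose by 0.42 and SMG9 fell by 0.60 (14.3% called, against 15.5% of all genes), whereas SMG1 (-0.14) did not pass. Of 19 genes listed for the nuclear exosome and its adaptors, EXOSC6 rose by 0.55 and MPHOSPH6 fell by 0.48 against HUWE1-P. Against HUWE1-WT 3 of the 19 were called, EXOSC6 (0.53), MPHOSPH6 (-0.50) and MPP6 (-0.60). MPP6 is an alias of MPHOSPH6, but the gene with that symbol is a different one, for a membrane-associated protein. The list took it in by name (annotated transcripts of 8346 bases for MPP6 and 1101 for MPHOSPH6). The share of 15.8%, beside 15.5% of all genes, includes it and is not one of exosome proteins alone. Against HUWE1-P the share called in each of these lists was below the 17.0% of all genes.

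MALAT1 and NEAT1 were not called in any comparison of the main fit, and 1 parental library set much of what was seen. MALAT1 was at 253, 414 and 204 CPM in HUWE1-P, 249, 239 and 199 CPM in HUWE1-WT and 237, 255 and 231 CPM in HUWE1-CS cells. HUWE1-P replicate 2 alone was high, and the other 8 libraries overlapped between the lines. The log2 fold change was -0.26 ± 0.098 between HUWE1-CS and HUWE1-P and -0.33 ± 0.098 between HUWE1-WT and HUWE1-P (adjusted p = 0.036 and 0.32 by edgeR), and without HUWE1-P replicate 2 both were above 0, at 0.086 and 0.014. Without HUWE1-P replicate 3, the lowest parental library, they were -0.48 and -0.55 and passed the test, with adjusted p-values of 3.85e-05 and 0.00011 by edgeR.

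NEAT1 was also highest in HUWE1-P replicate 2, at 164, 216 and 157 CPM in HUWE1-P, 159, 125 and 142 CPM in HUWE1-WT and 164, 167 and 166 CPM in HUWE1-CS cells. Its difference between HUWE1-CS and HUWE1-WT cells was 0.22 ± 0.091 (adjusted p = 0.059 by edgeR). With the length trend removed it was 0.39 and passed the test (adjusted p = 0.000271 by edgeR). That removal used an annotated transcript of 22743 bases. The scaffold isoform of NEAT1 is far longer than the polyadenylated short one, and gene counts do not separate them. Whether the annotated length applies to the RNA counted after poly(A) selection was not tested. Of the 10 paraspeckle proteins listed, 1 was called against HUWE1-P (10.0%, against 17.0% of all genes). Against HUWE1-WT edgeR called 0 (against 15.5%), with 1 at an unadjusted p under 0.05. The called one, PSPC1, rose against HUWE1-P (0.32 ± 0.098, adjusted p = 0.0084 by edgeR) and not against HUWE1-WT (0.096). SFPQ (0.0054) and NONO (-0.046) did not pass against HUWE1-P. In HUWE1-WT against HUWE1-P the list gave no call by edgeR. There 1 member, PSPC1 itself (0.23 ± 0.099), had an unadjusted p under 0.05.

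TUG1, an RNA with nuclear and cytoplasmic roles, came nearest to the threshold from below. It had 67.7, 69.0 and 72.8 CPM in HUWE1-P, 80.5, 61.1 and 58.1 CPM in HUWE1-WT and 52.2, 49.9 and 56.3 CPM in HUWE1-CS cells. Every HUWE1-CS library was below every control library, with -0.41 ± 0.13 against HUWE1-P (adjusted p = 0.010, just above the threshold) and -0.33 ± 0.13 against HUWE1-WT (adjusted p = 0.047), both by edgeR. Its annotated transcript has 7474 bases, in the class of long RNAs whose median was below 0, and with the length trend removed the value was -0.27 (adjusted p = 0.099).

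NORAD had 233, 237 and 241 CPM in HUWE1-P, 226, 232 and 214 CPM in HUWE1-WT and 209, 191 and 217 CPM in HUWE1-CS cells. HUWE1-CS and HUWE1-P did not overlap, HUWE1-CS and HUWE1-WT did, and the change of -0.21 ± 0.074 against HUWE1-P missed the threshold (adjusted p = 0.027 by edgeR). OIP5-AS1, which binds miR-7, gave -0.21 ± 0.14, and PVT1, the gene beside MYC, 0.11 ± 0.14, each with overlapping lines.

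**Figure D3:**
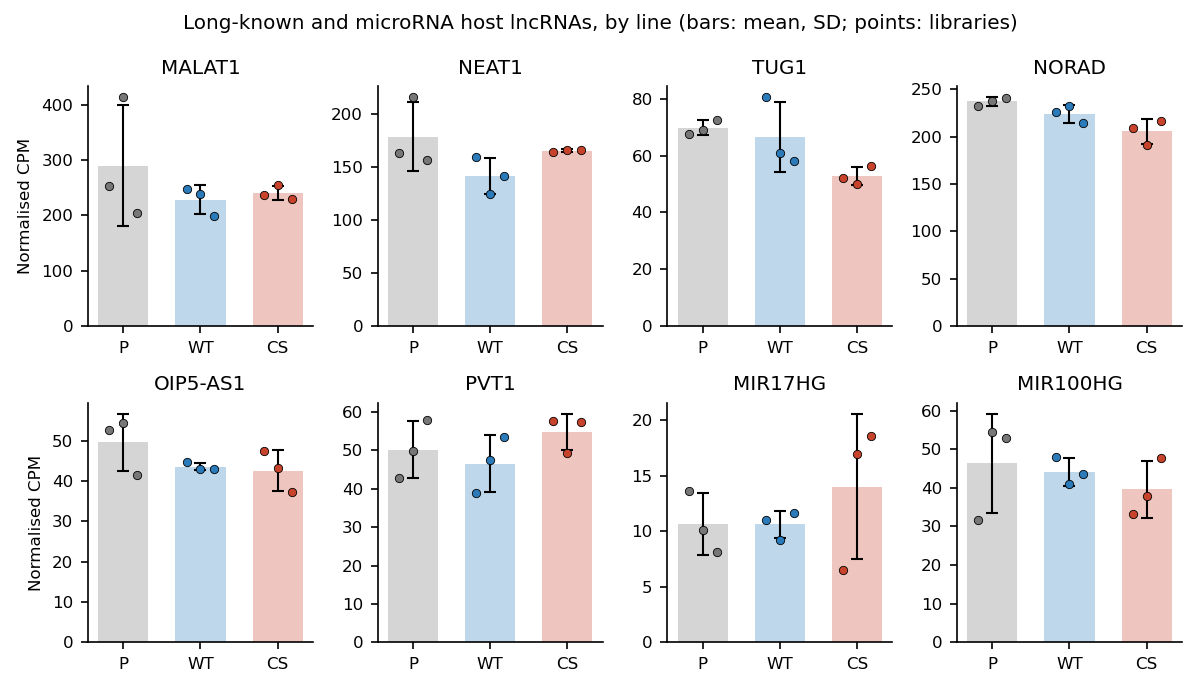
Normalised CPM (y axis, from 0) of 6 long-known lncRNAs and 2 microRNA host genes in the 3 lines (x axis), with points for libraries, bars for means and error bars for the SD. The single high HUWE1-P point of MALAT1 is replicate 2 at 414 CPM, and in TUG1 the 3 HUWE1-CS points, 49.9 to 56.3 CPM, lie below all others.

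The 5 microRNA hosts gave no call by edgeR or DESeq2 in any comparison, with 1 of them at an unadjusted p under 0.05 in HUWE1-CS against HUWE1-P. MIR17HG, the host of the miR-17-92 cluster, had 13.7, 10.1 and 8.19 CPM in HUWE1-P, 11.01, 9.27 and 11.6 CPM in HUWE1-WT and 6.53, 17.0 and 18.6 CPM in HUWE1-CS cells. The HUWE1-CS libraries held both the lowest and the highest values, and 0.43 ± 0.28 against HUWE1-P was within the spread (adjusted p = 0.27 by edgeR). MIR100HG had 31.7, 54.4 and 53.0 CPM, 48.1, 40.9 and 43.6 CPM, and 33.2, 38.0 and 47.6 CPM in the same order, with -0.25 ± 0.15. MIR1915HG (-0.83 ± 0.41, adjusted p = 0.13), MIR600HG (-0.047 ± 0.37) and MIR4697HG (0.0075 ± 0.34) were at 2.90 to 13.7 CPM.

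The mature microRNAs carried by the first 2 hosts are shown, from RefSeq, because the counts are of the host transcript and do not measure them. Capitals mark the seed, bases 2 to 8. In the MIR17HG cluster miR-17-5p and miR-20a-5p share 1 seed and miR-19a-3p and miR-19b-3p another, while miR-18a-5p and miR-92a-3p have their own. The 3 microRNAs of MIR100HG have different seeds.
hsa-miR-17-5p: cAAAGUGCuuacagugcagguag
hsa-miR-20a-5p: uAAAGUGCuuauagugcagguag
hsa-miR-18a-5p: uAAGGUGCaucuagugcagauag
hsa-miR-19a-3p: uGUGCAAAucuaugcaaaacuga
hsa-miR-19b-3p: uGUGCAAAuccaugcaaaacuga
hsa-miR-92a-3p: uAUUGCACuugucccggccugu
hsa-miR-100-5p: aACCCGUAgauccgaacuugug
hsa-let-7a-5p: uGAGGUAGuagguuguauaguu
hsa-miR-125b-5p: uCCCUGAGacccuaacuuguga

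Of the proteins that make and use microRNAs, 13 were in the table. Of these, 4 were called against HUWE1-P (30.8%, against 17.0% of all genes), 3 lower and 1 higher. DICER1, which cuts the hairpin precursor, fell by 0.65 from 85.7, 109 and 105 CPM in HUWE1-P to 67.7, 46.5 and 77.8 CPM in HUWE1-CS cells, with 91.6, 81.8 and 85.5 CPM in HUWE1-WT cells. TNRC6A, the silencing partner of Argonaute, fell by 0.66 and AGO2, the slicing Argonaute, by 0.63, whereas TARBP2, the cofactor of DICER1, rose by 0.49. Against HUWE1-WT 2 of the 13 were called (15.4%, against 15.5% of all genes), a share at the background: DICER1 and TNRC6A fell by 0.43 and 0.50, and AGO2 (-0.40) and TARBP2 (0.47) did not pass there. DICER1, TNRC6A and AGO2 have annotated transcripts of 8491 to 14595 bases and TARBP2 one of 1510 bases, and the part of the length trend in these values was not tested.

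Of the 50 antisense-named genes outside the groups above, 3 were called against HUWE1-P and 3 against HUWE1-WT, all higher, shares below the 17.0% and 15.5% of all genes. FAM83H-AS1 had 28.6, 31.4 and 30.4 CPM in HUWE1-P, 27.8, 28.9 and 30.8 CPM in HUWE1-WT and 32.0, 50.5 and 58.1 CPM in HUWE1-CS cells. All HUWE1-CS libraries were the higher ones, but replicate 1 was close to the controls. The log2 fold change was 0.64 ± 0.16 against HUWE1-P and 0.69 ± 0.16 against HUWE1-WT (adjusted p = 0.0013 and 0.00067 by edgeR), and without HUWE1-CS replicate 3 both calls were lost, at 0.47 and 0.51 (adjusted p = 0.048 and 0.032). The first was lost without HUWE1-CS replicate 2 as well (0.59, adjusted p = 0.012).

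TAPT1-AS1, on GRCh37 chr4:16228308-16321763, plus strand, had 20.5, 26.9 and 25.1 CPM in HUWE1-P, 22.0, 24.0 and 23.3 CPM in HUWE1-WT and 32.0, 41.4 and 37.7 CPM in HUWE1-CS cells, with no overlap between HUWE1-CS and either control. It rose by 0.61 ± 0.17 against HUWE1-P (adjusted p = 0.0040) and by 0.68 ± 0.17 against HUWE1-WT (adjusted p = 0.0016), both by edgeR. The first call was lost without HUWE1-P replicate 1 or 3 or without HUWE1-CS replicate 2 or 3 (adjusted p = 0.013 to 0.036), and the second without HUWE1-CS replicate 2 (adjusted p = 0.018). With the length trend removed both missed the threshold, at 0.45 and 0.53 (adjusted p = 0.039 and 0.015), and its annotated transcript has 510 bases.

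TRIM52-AS1, on GRCh37 chr5:180688170-180699308, plus strand, was the least abundant of the called members, with 3, 7 and 8 counts in HUWE1-P, 10, 7 and 16 in HUWE1-WT and 17, 14 and 16 in HUWE1-CS libraries, or 1.86 to 3.93, 3.82 to 9.30 and 7.94 to 10.1 CPM. HUWE1-CS and HUWE1-P did not overlap, and HUWE1-WT spanned both. It rose by 1.45 ± 0.41 against HUWE1-P (adjusted p = 0.0040 by edgeR) and not against HUWE1-WT (0.53 ± 0.35), with HUWE1-WT against HUWE1-P at 0.91 ± 0.44. The call was lost without HUWE1-P replicate 1 or 3 or HUWE1-CS replicate 1 or 3 (adjusted p = 0.010 to 0.033), and with the length trend removed (adjusted p = 0.012).

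FGD5-AS1, on GRCh37 chr3:14961854-14989931, minus strand, was called against HUWE1-WT alone. It had 110, 120 and 116 CPM in HUWE1-P, 108, 87.8 and 96.5 CPM in HUWE1-WT and 128, 130 and 121 CPM in HUWE1-CS cells, so that HUWE1-WT was the low line and HUWE1-P stood between. HUWE1-CS differed by 0.38 ± 0.097 from HUWE1-WT (adjusted p = 0.0016) and by 0.14 ± 0.093 from HUWE1-P (adjusted p = 0.30), both by edgeR. The call was lost without HUWE1-WT replicate 2 (0.31, adjusted p = 0.025) and with the length trend removed (0.27, adjusted p = 0.025). Of its exonic bases 2.56% are shared with NR2C2 on the other strand.

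Of the protein-coding partners of these genes, TAPT1 and FAM83H were in the table and were not called. TAPT1, on the strand opposite to TAPT1-AS1, was at 11.8 to 12.4 CPM in HUWE1-P, 12.79 to 17.96 CPM in HUWE1-WT and 11.03 to 14.75 CPM in HUWE1-CS cells, with 0.10 ± 0.26 against HUWE1-P, and no exonic bases are shared in GENCODE. FAM83H gave 0.16 ± 0.072 (adjusted p = 0.099 by edgeR), and its overlap with FAM83H-AS1 was not examined, since FAM83H-AS1 had no match in the annotation. TRIM52 and FGD5 were looked for under those names and were not among the genes of the count table.

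Over all antisense-named members, 43 partners were in the table, and 32 of these pairs share exonic bases. Against HUWE1-P, member and partner had the same sign in 23 of 43 pairs, and in no pair were both called. Of the partners 7 were called (16.3%, against 17.0% of all genes), a share near the background, and of the members in these pairs 2. Across the 43 pairs Pearson's r of the log2 fold changes was 0.17 and Spearman's rho 0.11, a description across genes that share their libraries. LOXL1 rose by 1.39 and GAS6 by 1.33, while LOXL1-AS1 (-0.16) and GAS6-AS1 (0.078) did not pass. NR2F1 fell by 1.47 and NR2F1-AS1, at -0.70 ± 0.31, lay below all control libraries in HUWE1-CS cells without passing the test (adjusted p = 0.090 by edgeR). These 3 pairs were chosen for the size of the partner's change.

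Among the 38 LINC genes, 1 was called against HUWE1-P (2.63%, against 17.0% of all genes) and none against HUWE1-WT by edgeR (against 15.5%), where 6 had an unadjusted p under 0.05 and DESeq2 called none. LINC00673 had 17.4, 12.4 and 17.8 CPM in HUWE1-P, 17.96, 23.5 and 15.1 CPM in HUWE1-WT and 25.5, 23.8 and 32.5 CPM in HUWE1-CS cells. The HUWE1-CS libraries lay above all controls, by little in the case of HUWE1-WT replicate 2. It rose by 0.78 ± 0.21 against HUWE1-P, or 1.71-fold (adjusted p = 0.0026 by edgeR), with 0.53 ± 0.20 against HUWE1-WT (adjusted p = 0.046). Without HUWE1-P replicate 2 or HUWE1-CS replicate 3 the call was lost (adjusted p = 0.033 and 0.039).

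LINC00857 and LINC00467 followed TUG1 in nearness to the threshold, in opposite directions. LINC00857 had 8.69, 14.6 and 16.4 CPM in HUWE1-P, 9.85, 8.18 and 9.89 CPM in HUWE1-WT and 4.75, 6.81 and 8.71 CPM in HUWE1-CS cells, with -0.99 ± 0.31 against HUWE1-P (adjusted p = 0.011 by edgeR) and ranges that overlap only at 8.69 to 8.71 CPM. LINC00467 had 4.97, 6.74 and 5.30 CPM, 8.69, 7.64 and 12.2 CPM, and 8.31, 14.8 and 11.6 CPM in the same order, with 1.02 ± 0.33 (adjusted p = 0.014). In LINC00467 both edited lines were above HUWE1-P, HUWE1-WT by 0.73 ± 0.35, and they overlapped each other (0.29 ± 0.30). LINC00999, which GENCODE gives as protein-coding, as it does TUG1, was at 2.33 to 8.90 CPM, with 0.57 ± 0.39.

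**Figure D4:**
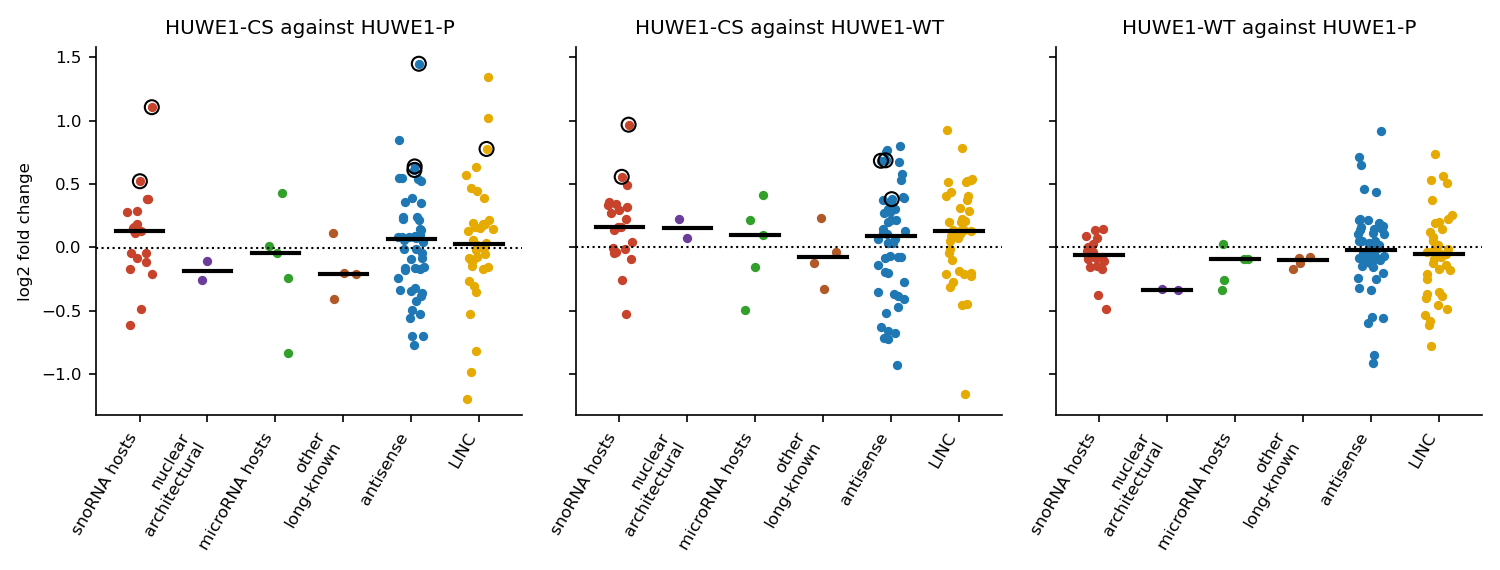
log2 fold change (y axis) of each of the 120 members by role (x axis) in the 3 comparisons, with bars for the median of a role, black rings for calls and a dotted line for the median of all genes. Rings appear in the HUWE1-CS panels only and above 0, and the HUWE1-WT against HUWE1-P panel has none.

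Counted over the list, 6 of 120 members were called in HUWE1-CS against HUWE1-P (against 17.0% of all genes) and 5 in HUWE1-CS against HUWE1-WT (4.17%, against 15.5%), all of them higher. SNHG32, SNHG19, FAM83H-AS1 and TAPT1-AS1 were in both. DESeq2 called 2 in each comparison, SNHG32 and SNHG19, and without HUWE1-CS replicate 3 the count against HUWE1-P was 3. Against HUWE1-P the calls were 5 higher and 3 lower with the length trend removed, and 8 higher and 6 lower at an FDR of at most 0.05, where those against HUWE1-WT were 8 higher and 4 lower. In HUWE1-WT against HUWE1-P edgeR called 0 members, with 10 at an unadjusted p under 0.05, beside 0.0617% of all genes, and DESeq2 called 0. The medians were 0.040, 0.13 and -0.059 in the order of these comparisons, beside -0.0072, -0.00059 and -0.0015 over all genes. The comparisons share the HUWE1-CS or the HUWE1-P libraries and are not independent of each other.

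The list is a low-level one. Over all genes the share of calls rose with the level, whereas among members it did not rise steadily. The part of the level in the members' share was not tested. The mean level of a member over the 9 libraries was 4.54 to 535 CPM with a median of 11.6 CPM, beside a median of 40.8 CPM over all genes, and the median standard error of the log2 fold change against HUWE1-P was 0.29, beside 0.15. Under 10 CPM, 1 of 58 members was called (1.72%, against 6.52% of all genes at that level), at 10 to 30 CPM 3 of 33 (9.09%, against 10.0%), at 30 to 100 CPM 1 of 19 (5.26%, against 16.7%) and over 100 CPM 1 of 10 (10.0%, against 32.9%). Within a level the standard errors of members and of all genes were alike, 0.090 and 0.082 over 100 CPM. Of the lncRNA genes whose names fall outside the rule, 8 of 49 were called against HUWE1-P (16.3%), 2 higher and 6 lower. Whether the 2 sets of lncRNA genes differ was not tested.

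In 19 members the 3 HUWE1-CS values were all above or all below the 6 control values, 11 higher and 8 lower, a share below the 26.3% of all genes. Beside TUG1 and SNHG4, the lower ones were LINC00346, LINC02693, PAX8-AS1, NR2F1-AS1, PSMA3-AS1 and FAM222A-AS1, named after their values were seen, and none of the 8 was called. LINC00346 had 9.31, 6.74 and 10.6 CPM in HUWE1-P, 7.53, 8.73 and 9.89 CPM in HUWE1-WT and 6.53, 3.97 and 1.16 CPM in HUWE1-CS cells, the last of them from 2 counts. Its log2 fold change was the largest of the 8 against HUWE1-P, -1.20 against HUWE1-P (adjusted p = 0.017 by edgeR) and -1.16 against HUWE1-WT (adjusted p = 0.024).

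**Figure D5:**
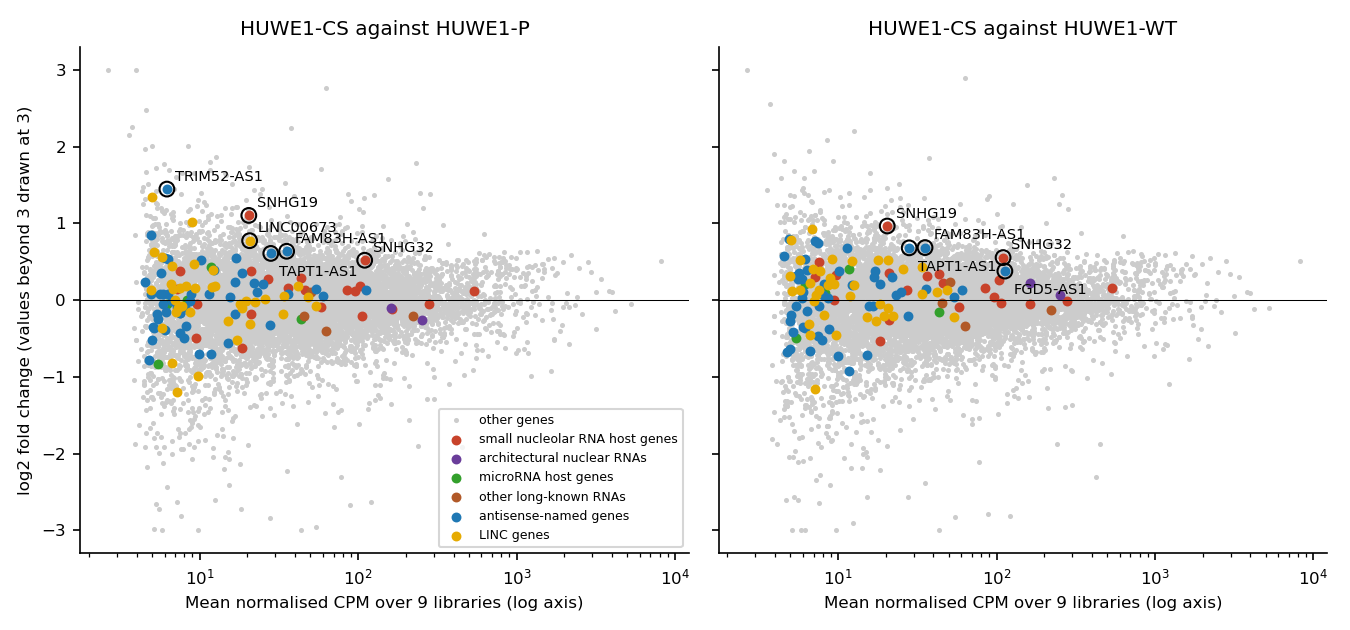
log2 fold change (y axis) against mean normalised CPM (x axis, log scale) for all 11350 genes (grey) and the 120 members (coloured by role), in HUWE1-CS against HUWE1-P and against HUWE1-WT. Rings and names mark the 6 and 5 called members, all above 0, and most members lie at the left, where the median of their levels is 11.6 CPM.

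By CPM the 5 most abundant members were SNHG29 (535), SNHG16 (279), MALAT1 (253), NORAD (222) and SNHG1 (163). Per kilobase of the annotated canonical transcript their order changed to SNHG29 at 1208 CPM per kb, SNHG16 at 561 and SNHG1 at 141, above NORAD at 41.2 and MALAT1 at 24.3. The annotated transcript need not be the one these cells make: for ZFAS1 it has 4526 bases and gives 23.4 CPM per kb, and levels per length carry that uncertainty.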

How the data were processed

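RNA was made into libraries with a poly(A) selection module and NEBNext Ultra II RNA, as the study states. The kit of that name does not mark strand, but no source used here states whether strand was kept. The authors demultiplexed with bcl2fastq 2.20 and mapped to hg19 with STAR 2.5.4 per the submitters' processing notes, and deposited 1 table of raw counts per gene and library. The counting tool, annotation and use of strand are not given in the sources used here. Deposited tables of the authors' own edgeR 3.26.8 comparisons hold log2 fold changes, mean log CPM, F, p and FDR, and were not used.

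Members, role groups and protein lists were chosen with earlier results of these data known. The text names every called member, the long-known, SNHG and MIR...HG genes, the 5 highest by mean CPM, the 3 with the smallest p among those not called in HUWE1-CS against HUWE1-P, the partners of called antisense genes and members that a reference gives as protein-coding. Counts of all 11350 genes (filterByExpr removed none) were scaled by TMM and tested with glmQLFit (legacy = TRUE) and glmQLFTest in edgeR 4.0.16 (R 4.3.3) on the 9 libraries together, without covariates beyond the line. Called means p and FDR of at most 0.01. CPM are TMM-scaled. Values after ± are SE of log2 fold changes, n = 3 libraries per line. Samples were grouped by their labels. The study describes the 3 libraries of a line as biological replicates, and p-values measure the spread between them. Replicates differed beyond sampling noise (chi-square per degree of freedom 1.16 to 1.65). Positions and lengths are from GENCODE v44lift37 (113 of 120 members matched), promoters and microRNAs from RefSeq (GRCh38.p14, 99 members with a promoter). The scripts were tested on simulated counts. Alternatives were DESeq2 1.42.0, the present edgeR estimator, RLE size factors, a minimum of 10 counts in every library, only the 2 lines compared, the replicate number as a block, removal of a trend with transcript length (a spline with 4 degrees of freedom per library, genes without a length left as they were), FDR of at most 0.05, and leaving out each library. Some genes of the protein lists are not reported here.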

Additional observations from a re-analysis of the deposited data

How the results depend on the processing

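The members called in HUWE1-CS against HUWE1-P numbered 6, and 2 under DESeq2 1.42.0, 14 at an FDR of at most 0.05 (8 higher, 6 lower) and 3 to 8 when 1 library was left out, the 3 without HUWE1-CS replicate 3. In HUWE1-CS against HUWE1-WT the count was 5, and 2 under DESeq2, 12 at an FDR of at most 0.05 (8 higher, 4 lower) and 4 to 6 with 1 library left out. In HUWE1-WT against HUWE1-P it was 0, and 0 to 1 with 1 library left out, the 1 being MALAT1 without HUWE1-P replicate 3. The median log2 fold change of the members in HUWE1-CS against HUWE1-P, 0.040, was -0.059 to 0.083 with 1 library left out, the negative value without HUWE1-P replicate 3, and -0.00431 with the length trend removed. In HUWE1-CS against HUWE1-WT the median was above 0 under all 17 alternatives and in HUWE1-WT against HUWE1-P below 0 under all 17. The genes DESeq2 called were SNHG32 and SNHG19 in both comparisons, and SNHG32 passed in both under all 17 alternatives. With the length trend removed the calls against HUWE1-P were 8, 5 higher and 3 lower: TAPT1-AS1 and TRIM52-AS1 were lost, LINC00467 was added as higher and LINC00857, SNHG1 and SNHG16 as lower, while FAM83H-AS1 and LINC00673 have no length and could not be adjusted. With the replicate number as a block the counts were 7, 5 and 0. Replicates of the same number deviated from their group means with correlations of -0.020 to 0.058 (9 pairs), beside -0.065 to 0.033 for different numbers (18 pairs), so that the numbers were not taken to pair the samples. All other counts lay within 1.5 times the main count. Depth limits the list most below 10 CPM, where 58 of the 120 members lie and the median standard error was 0.38, so that a miss there does not show that a gene did not change.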
